A study of Mus musculus with 16 samples.

Results

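The genes described here encode the proteasome: its subunits, the chaperones that assemble it, its activators and its inhibitor. They were taken by name, as every gene called Psma, Psmb, Psmc, Psmd, Psme, Psmf or Psmg with a number, and 48 of the 31020 gene names in the deposited tables met that rule, each on 1 entry. The libraries came from male YFP-H mice (B6.Cg-Tg(Thy1-YFP)HJrs/J, post natal day 60 to 80), in which the Thy1 promoter drives YFP in subsets of projection neurons. All mice drank 0.5% saccharin for 30 min and were then injected i.p. at 2% of body weight, with 0.15 M LiCl for conditioned taste aversion (CTA) or with saline for the taste control. YFP+ neurons of the basolateral amygdala (BLA) and of the gustatory cortex (GC) were picked by hand 4 hr later. After RNA amplification each region gave 4 CTA and 4 taste control libraries, 16 in all. Every mouse carried the transgene and had tasted saccharin, so the taste control is not a naive baseline, and the labels do not say which libraries of the 2 regions came from the same animal or whether a library pools animals.

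The proteasome degrades proteins that carry ubiquitin chains. Its 20S core is a barrel of alpha rings, which form the gate, around beta rings, which hold the proteolytic sites inside. The 19S particle caps the barrel: its lid and base bind and deubiquitinate the substrate, and a ring of ATPases unfolds it and feeds it into the core. In neurons the complex is known for turning over synaptic proteins, and proteasome activity has long been studied in synaptic plasticity and memory.

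The values are TPM, a read share corrected for transcript length, so levels can be compared between genes per length of transcript. The paper gives a usual number of unique reads, but the depth of each library is unknown. Each error given is the spread between libraries. All 16 libraries carried transcripts of projection neurons, with a sum over 6 markers of 2004 to 2632 TPM in BLA and 2899 to 3648 TPM in GC. The BLA list (Rspo2 and Cdh9) separated the regions, at 133 to 263 TPM in BLA and 45.0 to 80.7 TPM in GC. The summed cortical layer 5 list (4 genes) went against its name, at 555 to 667 TPM in BLA and 289 to 430.0 TPM in GC. Etv1 had a mean of 333 TPM in BLA and 57.7 TPM in GC, so the sum does not give the direction of the other genes. Glial transcripts were higher in GC, with 5 astrocyte markers summing to 1.56 to 8.97 TPM in BLA and 11.04 to 51.6 TPM in GC, and 5 oligodendrocyte markers to 14.7 to 122 TPM and 103 to 368 TPM. The sums over 10 microglia markers overlapped between the regions (10.1 to 71.2 TPM in BLA, 18.99 to 84.5 TPM in GC), and Tmem119 was at 0 in every BLA library. Interneuron markers (6 genes, 3.98 to 134 TPM in BLA and 5.39 to 111 TPM in GC) and endothelial and mural markers (8 genes, 2.16 to 27.6 TPM and 3.81 to 29.7 TPM) overlapped too. In BLA 12606 to 13789 entries per library reached 1 TPM, against 14359 to 14830 in GC, and Thy1 alone took 64127 to 89098 TPM in BLA and 26938 to 53946 TPM in GC.

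Proteasome transcripts were abundant in both populations. On TPM as deposited, the 48 genes together took 0.586% to 0.721% of all TPM in the 8 BLA libraries. In the 8 GC libraries they took 0.580% to 0.695%, a range that overlapped almost entirely with that of BLA. The 14 genes of the standard 20S core had mean levels over the 16 libraries from 109.5 TPM (Psma1) to 366 TPM (Psmb7), with a median of 238 TPM. The 17 genes of the 19S particle with a Psm name, so without Adrm1 and Sem1, ran from 51.5 TPM (Psmd3) to 289.8 TPM (Psmc5). Their median was 119.6 TPM. The summed level of these 17 genes was 0.573 to 0.839 times the summed 20S level in BLA and 0.631 to 0.744 times in GC. On TPM as deposited the 20S sum averaged 3504 ± 327 in BLA and 3400 ± 224 in GC (SD, n = 8). After rescaling the libraries by the median ratio of genes it averaged 3795 ± 409 and 3152 ± 328. The sum of the 17 19S genes then averaged 2507 ± 337 in BLA and 2187 ± 273 in GC. Assembly chaperones, activators and the inhibitor lay between 14.9 and 95.1 TPM, overlapping the lower 19S genes. Psmb7, the most abundant member, exceeded 97.1% of all genes averaging 1 TPM or more, and Psmd9, the least abundant of the 44 members above that level, exceeded 46.6%. When the 48 members of all roles were ordered by mean level, only 2 of the 47 neighbouring pairs were further apart than the larger of their SDs over libraries. The rank of a single member against its neighbours is therefore loose.

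**Figure D1:**
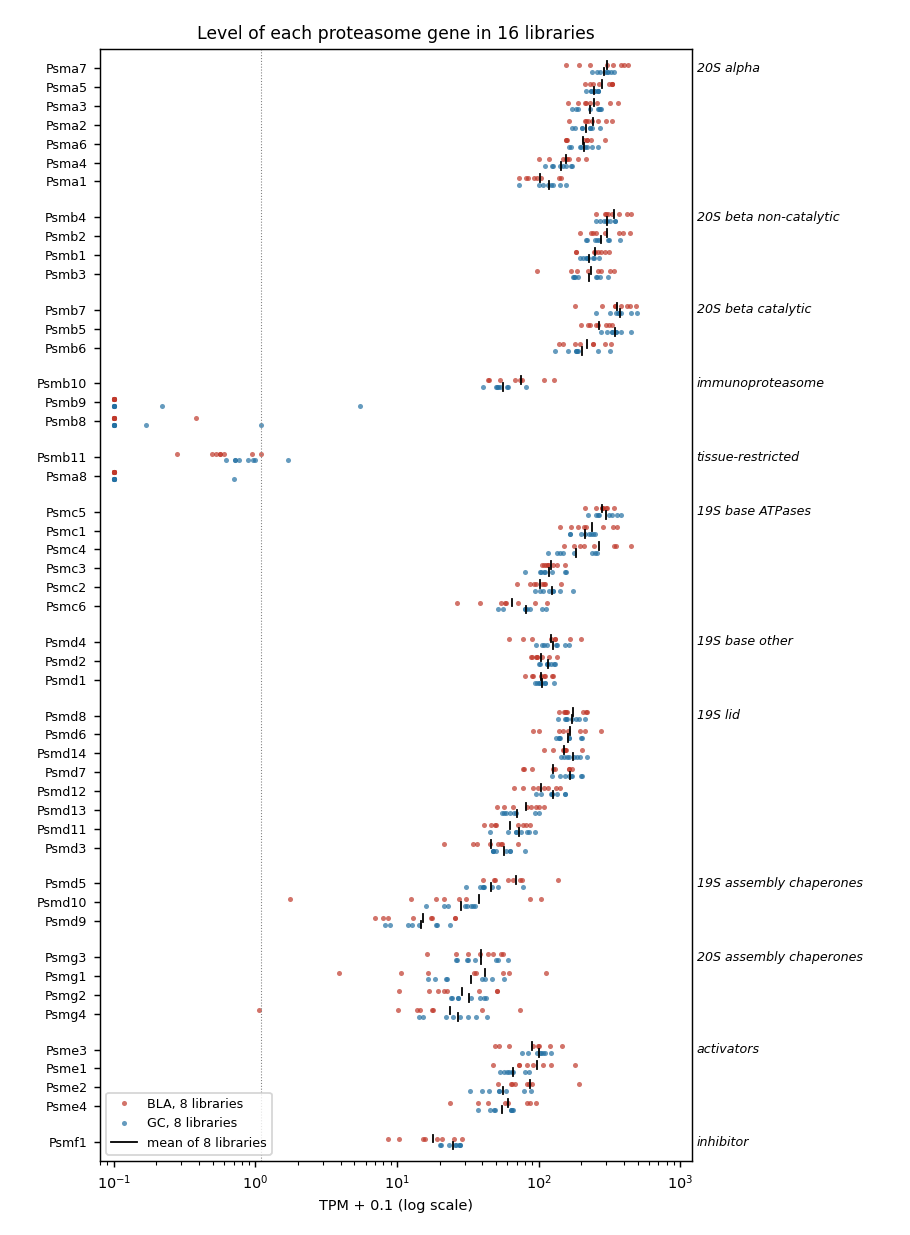
TPM + 0.1 on a log axis for each of the 48 proteasome genes, grouped by role, with 8 BLA libraries in red, 8 GC libraries in blue and a black tick at the mean of each region (none for the 4 genes with a mean below 1 TPM, the dotted line). The 20S and 19S genes sit between 21.5 TPM (Psmd3) and 495 TPM (Psmb7), while Psmb8, Psmb9, Psmb11 and Psma8 sit at or near 0, and the red points of Psmd10, Psmg1 and Psmg4 are the most scattered.

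The 7 alpha subunits of the 20S core, which form the outer rings and the gate, ranged from Psma1 (109.5 ± 26.5 TPM, SD, n = 16) to Psma7 (297 ± 72.8 TPM). The 4 values of a group are given in the order of replicate numbers 1 to 4. Psma7 stood at 303, 379.97, 428 and 229 TPM in the BLA CTA libraries and at 336, 193, 155 and 399 TPM in the BLA taste controls. GC levels of Psma7 were 292, 307, 239 and 321 TPM after CTA and 257, 303, 337 and 271 TPM in the taste controls. The BLA values of Psma7 spread further than those of GC, and the training groups overlapped in both regions. Psma1 stood at 81.1, 72.8, 139 and 92.03 TPM in the BLA CTA libraries and at 103, 97.1, 83.2 and 144 TPM in the BLA taste controls. GC levels of Psma1 were 125, 121, 71.9 and 156 TPM after CTA and 101, 141, 117 and 107 TPM in the taste controls. Psma1 was below every other alpha subunit on average, and its groups overlapped. Psma2, Psma3, Psma4, Psma5 and Psma6 had means of 229, 237, 149.8, 264 and 206 TPM.

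The 4 beta subunits without a proteolytic site ranged from Psmb3 (230.2 ± 65.7 TPM, SD, n = 16) to Psmb4 (321 ± 54.4 TPM), with Psmb1 at 238 TPM and Psmb2 at 289 TPM. Psmb4 stood at 330.5, 297, 418 and 371 TPM in the BLA CTA libraries and at 293, 448, 307 and 252 TPM in the BLA taste controls. GC levels of Psmb4 were 254, 270.02, 301 and 346 TPM after CTA and 305, 286, 344 and 318 TPM in the taste controls. All 16 values of Psmb4 lay at or above 252 TPM. Psmb3 stood at 261, 274, 224 and 168 TPM in the BLA CTA libraries and at 340.3, 318, 97.7 and 187 TPM in the BLA taste controls. GC levels of Psmb3 were 190.3, 176, 258 and 273 TPM after CTA and 175, 181, 306 and 253 TPM in the taste controls. The BLA taste controls of Psmb3 held both the highest and the lowest of the 16 values.

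The 3 standard catalytic subunits cut proteins with different preferences: Psmb6 after acidic, Psmb7 after basic and Psmb5 after hydrophobic residues. Psmb5 stood at 199.9, 330.1, 232 and 222 TPM in the BLA CTA libraries and at 314, 263, 298 and 254 TPM in the BLA taste controls. GC levels of Psmb5 were 327, 353, 379 and 446 TPM after CTA and 275, 305, 328 and 349 TPM in the taste controls. The 8 GC values of Psmb5 (275 to 446 TPM) were mostly above the 8 BLA values (199.9 to 330.1 TPM), with some overlap. Psmb6 stood at 139, 295, 147 and 179 TPM in the BLA CTA libraries and at 321, 197, 242 and 243 TPM in the BLA taste controls. GC levels of Psmb6 were 161, 183, 187 and 261 TPM after CTA and 131, 189, 317 and 183 TPM in the taste controls. The 4 groups of Psmb6 overlapped. Psmb7 stood at 281, 443, 418 and 483 TPM in the BLA CTA libraries and at 343, 381, 179.7 and 345 TPM in the BLA taste controls. GC levels of Psmb7 were 349.96, 318, 381 and 495 TPM after CTA and 255, 360.4, 371 and 449 TPM in the taste controls. The lowest of the 16 values of Psmb7 was in a BLA taste control and the highest in a GC CTA library.

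The catalytic subunits Psmb5 and Psmb6 are shown with their upstream sequence because both hold the letters of an antioxidant response element (TGACNNNGC on either strand), the motif through which the transcription factor Nfe2l1 is known to act on proteasome genes. Each run is 150 bases of RefSeq sequence (build GRCm38.p6) on the gene's own strand, 5′ to 3′, with the motif in capitals. The Psmb5 run is chr14:54618023-54618172 on the minus strand, and the Psmb6 run is chr11:70525207-70525356 on the plus strand.
Psmb5: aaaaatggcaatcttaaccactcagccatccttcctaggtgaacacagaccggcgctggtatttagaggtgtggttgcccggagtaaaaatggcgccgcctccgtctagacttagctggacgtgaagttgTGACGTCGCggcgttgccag
Psmb6: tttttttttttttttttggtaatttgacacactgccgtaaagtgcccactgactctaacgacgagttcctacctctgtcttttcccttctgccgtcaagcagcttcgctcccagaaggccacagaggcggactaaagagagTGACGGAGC
The Psmb5 motif lies 47 to 39 bases before the RefSeq start and the Psmb6 motif 9 to 1 bases before it. The table used held upstream windows for 40 of the 48 members, 43 windows in all. In the 250 bases before the start, 5 of these 43 windows (11.6%) held the element, against 10.2% of 32851 windows of all genes. The other 3 members with it were Psmc6, Psmd12 and Psmd9. On either strand, and with overlaps between motifs allowed, a GC box (GGGCGG) was in 53.5% of member windows and 32.7% of all windows, and a CCAAT box (CCAAT) in 32.6% and 33.8%. Letters of interferon elements were in 6.98% and 2.98% (GAAA, any 2 bases, GAAA) and in 4.65% and 7.02% (TTCNNNGAA), and a cAMP response element (TGACGTCA) in 0% and 1.55%. A match describes the letters of a window only.

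The immunoproteasome counterparts, which replace the standard catalytic subunits in immune cells and after interferon, were split. Psmb10, the counterpart of Psmb7, was expressed in every library (65.3 ± 24.5 TPM, SD, n = 16). Psmb10 stood at 109, 73.9, 44.2 and 68.2 TPM in the BLA CTA libraries and at 76.5, 129, 43.5 and 53.01 TPM in the BLA taste controls. GC levels of Psmb10 were 60.1, 50.6, 81.3 and 60.95 TPM after CTA and 52.9, 50.01, 51.5 and 40.2 TPM in the taste controls. Psmb10 reached 10.6% to 38.9% of the Psmb7 level in the BLA libraries and 8.95% to 21.4% in the GC libraries. Psmb8, the counterpart of Psmb5, was listed at 0 in every library but BLA CTA 3 (0.28 TPM), GC taste control 1 (1 TPM) and GC taste control 4 (0.07 TPM). Psmb9, the counterpart of Psmb6, was listed at 0 in every library but GC taste control 2 (0.12 TPM) and GC taste control 3 (5.33 TPM). Another 7 genes known to respond to interferon summed to 139.7 to 234 TPM in BLA and 104 to 268.5 TPM in GC. B2m, at a mean of 173 TPM, was the only 1 of them to average 30 TPM or more, and the median of the 7 means was 2.55 TPM. Tap1, which shares 212 exonic bases with Psmb9, was at 1.096 TPM.

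**Figure D2:**
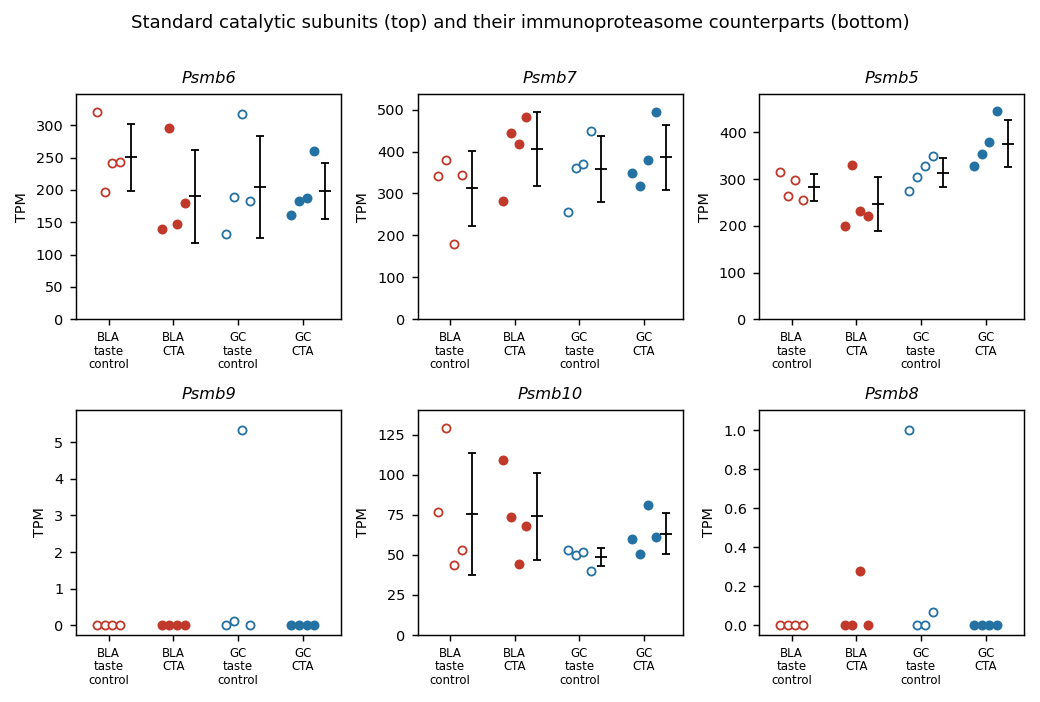
TPM of the standard catalytic subunits Psmb6, Psmb7 and Psmb5 (top) above their immunoproteasome counterparts Psmb9, Psmb10 and Psmb8 (bottom), 1 point per library, open for taste control and filled for CTA, with mean ± SD (n = 4) in black except for Psmb9 and Psmb8. The vertical scales differ: the top row reaches 495 TPM, Psmb10 at most 129 TPM, and Psmb9 and Psmb8 are at 0 in nearly every library.

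The tissue-restricted members were at the floor. Psma8, the alpha subunit of spermatocyte proteasomes, was at 0 in 15 libraries and at 0.61 TPM in GC CTA 4. Psmb11, the catalytic subunit of the thymus cortex, stood at 1, 0.39, 0.50 and 0.43 TPM in the BLA CTA libraries and at 0.46, 0.84, 0.46 and 0.18 TPM in the BLA taste controls. Its GC levels were 0.62, 0.78, 0.66 and 0.52 TPM after CTA and 1.60, 0.86, 0.62 and 0.89 TPM in the taste controls. With Psmb8 and Psmb9 these 4 members fell below the mean of 1 TPM required for testing, and the other 44 were tested in all 6 comparisons.

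The 6 ATPases of the 19S base, the motor that unfolds substrates, ranged from Psmc6 (73.02 ± 25.8 TPM, SD, n = 16) to Psmc5 (289.8 ± 47.1 TPM), a 3.97-fold span. Psmc5 stood at 214, 282, 299.6 and 342 TPM in the BLA CTA libraries and at 301, 279, 278 and 254 TPM in the BLA taste controls. GC levels of Psmc5 were 252, 262, 384 and 313 TPM after CTA and 266, 223, 359.5 and 329 TPM in the taste controls. All 16 values of Psmc5 lay between 214 and 384 TPM. Psmc6 stood at 114, 26.4, 93.8 and 54.00 TPM in the BLA CTA libraries and at 38.5, 59.04, 57.9 and 71.3 TPM in the BLA taste controls. GC levels of Psmc6 were 79.6, 113, 51.9 and 82.9 TPM after CTA and 79.6, 105, 55.5 and 86.2 TPM in the taste controls. The lowest and the highest of the 16 values of Psmc6 were both in BLA CTA libraries. Psmc1, Psmc2, Psmc3 and Psmc4 had means of 224, 112, 119.6 and 224 TPM.

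The other base subunits are the scaffold proteins Psmd1 and Psmd2 and the ubiquitin receptor Psmd4, with means of 105, 109.6 and 124 TPM. Psmd4 stood at 89.03, 166, 130.02 and 130.3 TPM in the BLA CTA libraries and at 197, 77.5, 122 and 61.5 TPM in the BLA taste controls. GC levels of Psmd4 were 105, 109, 162 and 135 TPM after CTA and 94.8, 114, 152 and 133 TPM in the taste controls. Psmd1 stood at 104, 109, 123 and 91.5 TPM in the BLA CTA libraries and at 89.9, 79.3, 126 and 109.8 TPM in the BLA taste controls. GC levels of Psmd1 were 110.01, 102, 96.6 and 100.3 TPM after CTA and 93.6, 128, 105 and 111 TPM in the taste controls. Although their means were close, Psmd4 ran from 61.5 to 197 TPM in BLA and Psmd1 from 79.3 to 126 TPM.

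The 8 lid subunits, which include the deubiquitinase Psmd14 and its partner Psmd7, ranged from Psmd3 (51.5 ± 14.1 TPM, SD, n = 16) to Psmd8 (172 ± 28.2 TPM). Psmd8 stood at 138, 206, 157 and 151 TPM in the BLA CTA libraries and at 218, 216, 153 and 156 TPM in the BLA taste controls. GC levels of Psmd8 were 152, 156, 182 and 213 TPM after CTA and 159, 138, 193 and 172 TPM in the taste controls. All 16 values of Psmd8 lay between 138 and 218 TPM. Psmd3 stood at 53.6, 55.00, 36.7 and 51.1 TPM in the BLA CTA libraries and at 34.5, 71.6, 21.5 and 45.5 TPM in the BLA taste controls. GC levels of Psmd3 were 47.2, 50.2, 62.4 and 79.3 TPM after CTA and 47.7, 47.5, 58.6 and 62.2 TPM in the taste controls. Every value of Psmd3 was below the lowest value of Psmd8. Psmd6, Psmd7, Psmd11, Psmd12, Psmd13 and Psmd14 had means of 162, 145, 67.6, 115, 75.6 and 162 TPM.

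Psmd5, Psmd9 and Psmd10 are chaperones that hold pairs of ATPases while the 19S base is built. Psmd5 stood at 73.3, 49.3, 76.5 and 136 TPM in the BLA CTA libraries and at 65.8, 48.4, 40.6 and 60.2 TPM in the BLA taste controls. GC levels of Psmd5 were 46.9, 51.7, 77.2 and 38.4 TPM after CTA and 30.6, 41.00, 40.4 and 40.4 TPM in the taste controls. Psmd5 was highest in BLA CTA 4. Psmd9 stood at 17.5, 25.4, 25.6 and 8.55 TPM in the BLA CTA libraries and at 12.8, 7.89, 6.84 and 17.1 TPM in the BLA taste controls. GC levels of Psmd9 were 11.8, 8.84, 14.1 and 23.5 TPM after CTA and 18.8, 8.05, 12.7 and 19.1 TPM in the taste controls. The values of Psmd9 ran up to 25.6 TPM. Psmd10, singled out after its values were seen, ran from 1.66 to 103 TPM in BLA and from 15.9 to 35.3 TPM in GC.

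The 4 Psmg genes encode chaperones that help to build the alpha ring of the 20S core. Psmg3 stood at 26.1, 47.2, 16.2 and 31.8 TPM in the BLA CTA libraries and at 53.8, 55.8, 43.9 and 38.4 TPM in the BLA taste controls. GC levels of Psmg3 were 26.2, 31.6, 51.4 and 35.3 TPM after CTA and 26.1, 49.7, 30.9 and 60.6 TPM in the taste controls. The mean of Psmg3 was 39.1 TPM, the highest of the 4 over all libraries, while in BLA Psmg1 averaged 41.3 TPM. Psmg4 stood at 17.6, 13.8, 10.02 and 0.960 TPM in the BLA CTA libraries and at 14.4, 39.95, 73.4 and 17.9 TPM in the BLA taste controls. GC levels of Psmg4 were 24.7, 31.5, 36.1 and 15.2 TPM after CTA and 43.2, 21.99, 14.2 and 27.9 TPM in the taste controls. Psmg4 was below every BLA taste control in 3 of the 4 BLA CTA libraries, and BLA CTA 1 (17.6 TPM) lay between taste controls 1 and 4. Psmg1 and Psmg2 had means of 37.2 and 30.4 TPM, and Psmg1 (singled out after its values were seen) ran from 3.77 to 112 TPM in BLA and from 16.3 to 56.7 TPM in GC.

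The activators open the 20S gate without ATP. Psme1 and Psme2 form 1 ring, Psme3 a nuclear ring of its own, and Psme4 a large single-chain cap. Psme3 stood at 91.2, 146, 52.1 and 121 TPM in the BLA CTA libraries and at 99.6, 98.4, 61.98 and 49.02 TPM in the BLA taste controls. GC levels of Psme3 were 97.5, 111, 101 and 103 TPM after CTA and 83.6, 75.8, 107 and 123 TPM in the taste controls. Psme3 had the highest mean of the 4 over all libraries (95.1 TPM) and in GC, while in BLA Psme1 averaged 96.7 TPM and Psme3 89.9 TPM. Psme4 stood at 86.6, 60.4, 57.4 and 95.3 TPM in the BLA CTA libraries and at 37.1, 44.1, 23.7 and 81.9 TPM in the BLA taste controls. GC levels of Psme4 were 65.97, 63.98, 36.9 and 49.2 TPM after CTA and 65.1, 45.3, 47.9 and 63.7 TPM in the taste controls. Psme4 reached from 23.7 to 95.3 TPM in BLA. Psme1 and Psme2 had means of 81.3 and 71.5 TPM.

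Psmf1, a 20S-binding protein described as an inhibitor, averaged 21.3 ± 6.29 TPM (SD, n = 16). Psmf1 stood at 10.2, 28.5, 20.7 and 25.2 TPM in the BLA CTA libraries and at 18.9, 15.8, 8.56 and 15.2 TPM in the BLA taste controls. GC levels of Psmf1 were 27.6, 20.1, 26.00 and 27.5 TPM after CTA and 23.3, 20.2, 25.7 and 27.7 TPM in the taste controls. After taste control, all 4 BLA values of Psmf1 were below all 4 GC values on TPM as deposited, while after CTA the regions overlapped. After median-ratio rescaling they overlapped after taste control too, with BLA taste control 1 at 21.002 and GC taste controls 1 and 2 at 19.7 and 18.7.

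**Figure D3:**
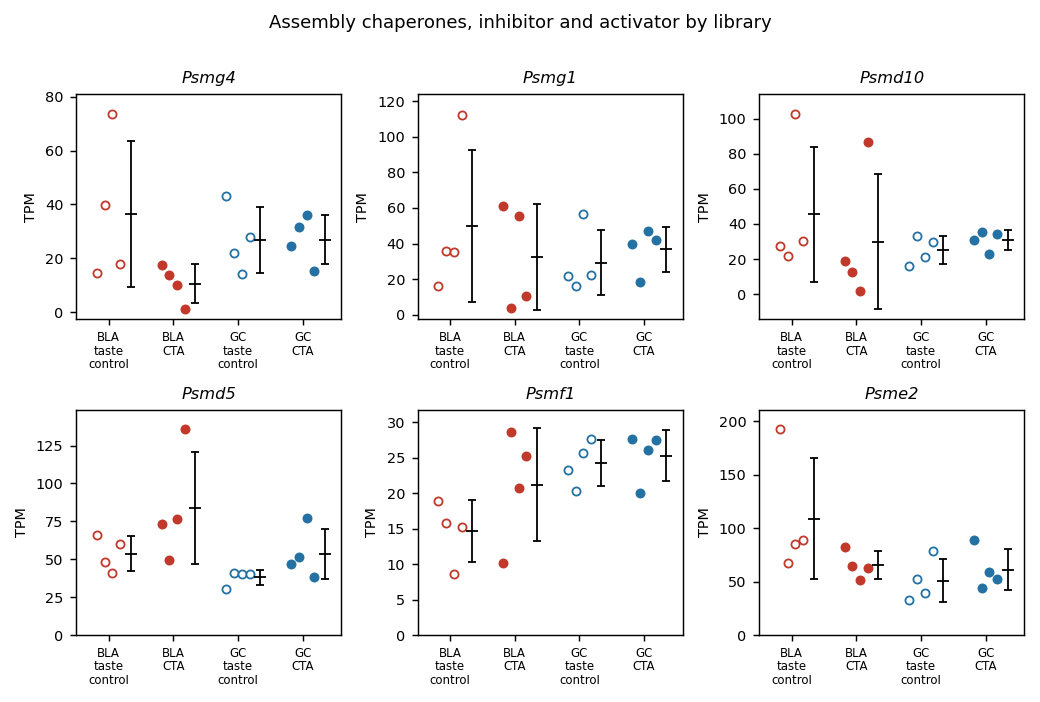
TPM of the chaperones Psmg4, Psmg1, Psmd10 and Psmd5, the inhibitor Psmf1 and the activator Psme2, 1 point per library, open for taste control and filled for CTA, with mean ± SD (n = 4) in black. BLA libraries (red) spread further than GC libraries (blue) for Psmg4, Psmg1 and Psmd10, and the 4 open red points of Psmf1 lie below all open blue points on this scale, TPM as deposited.

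CTA was compared with taste control in each region to ask whether training changed these transcripts 4 hr later. No member passed the test in BLA. limma called 0 of the 44 members and 0 of 14611 genes tested (0%) at an adjusted p under 0.05, and 1 member (Psmg4) had an unadjusted p under 0.05, against 3.89% of all genes. In no member were the CTA and taste control libraries of the BLA free of overlap, as they were in 2.38% of all genes. On the log2(TPM + 1) scale 24 members were higher and 20 lower after CTA, with a median difference of 0.04, beside 0.02 for all genes. Psmg4 averaged 10.6 TPM after CTA and 36.4 TPM in taste controls, a log2 difference of -1.81 (SE 0.72, limma adjusted p = 0.999), and a two-sided exact permutation test of its mean TPM gave p = 0.0571, where 4 against 4 libraries allow no less than 0.0286. All 4 Psmg chaperones had lower values after CTA in BLA, from -0.05 for Psmg2 to -1.81 for Psmg4, none of them called. In GC 3 of the 4 were higher after CTA and 1 lower, from -0.17 for Psmg3 to 0.40 for Psmg1, again none called.

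The estimated differences of the 20S and 19S genes in BLA were small, but the intervals were wide. The 7 alpha subunits ran from -0.44 (Psma4) to 0.37 (Psma7), the 4 non-catalytic beta subunits from -0.02 (Psmb1) to 0.22 (Psmb2), and the catalytic subunits were at -0.22 for Psmb5, -0.44 for Psmb6 and 0.41 for Psmb7. The ATPases ran from -0.42 (Psmc4) to 0.18 (Psmc6) and the lid from -0.18 (Psmd8) to 0.29 (Psmd3). The 95% interval of the difference lay within 2-fold either way for 26 of the 31 standard 20S and 19S genes, but for only 1 of the 13 other members tested, Psmb10. The intervals of every chaperone and activator and of Psmf1 reached beyond 2-fold in at least 1 direction. Within 1.5-fold lay the intervals of only 4 of the 44 members.

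No member passed the test in GC either. limma called 0 of the 44 members and 0 of 15278 genes (0%), no member had an unadjusted p under 0.05 (3.75% of all genes did), and none was free of overlap between the training groups (2.21% of all genes were). After CTA 23 members were higher and 21 lower, with a median log2 difference of 0.02, beside -0.01 for all genes. Differences ran from -0.27 for Psmd6 to 0.44 for Psmd5, and among the catalytic subunits Psmb5 was at 0.25 and Psmb7 at 0.11, while the Psmb6 means on this scale were nearly equal. The 95% interval lay within 2-fold for 43 of 44 members, Psmg1 being the exception, and within 1.5-fold for 30.

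**Figure D4:**
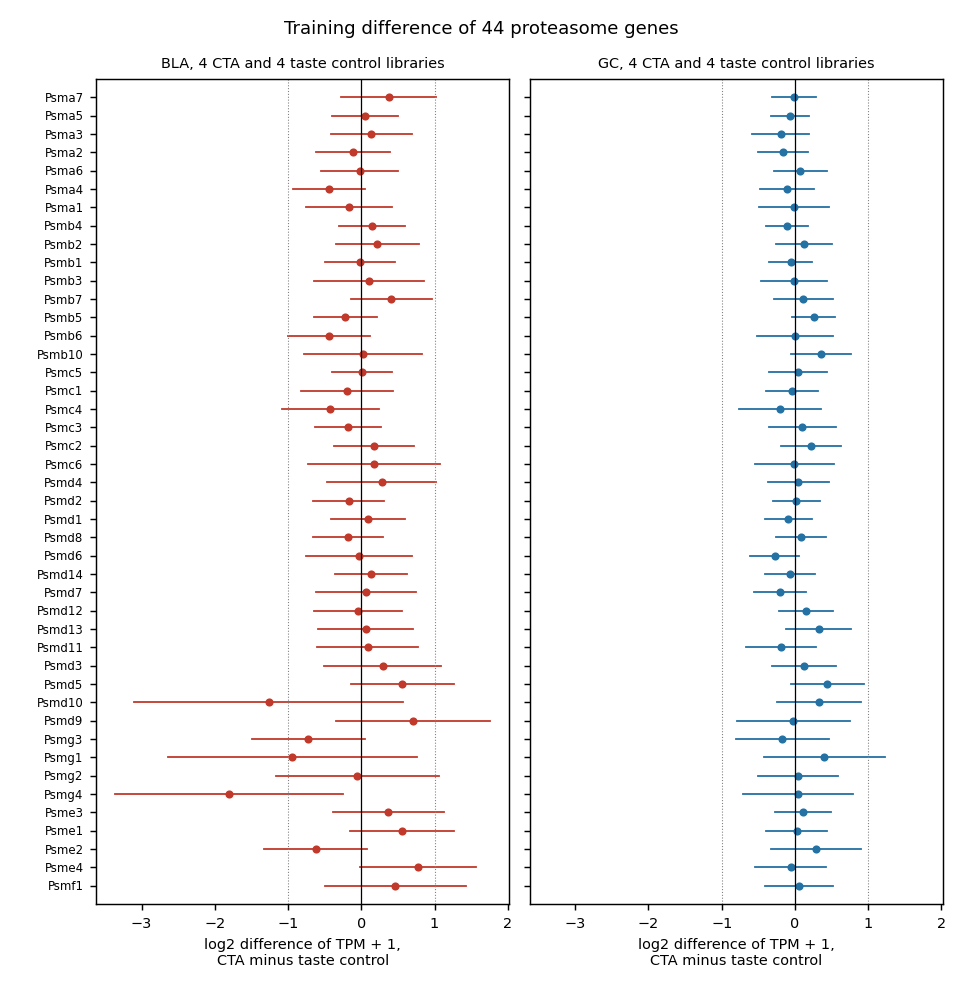
Difference of each of 44 proteasome genes between CTA and taste control on the log2(TPM + 1) scale, with the 95% interval from limma (n = 4 against 4), in BLA (left) and GC (right). Dotted lines mark 2-fold. GC intervals stay within 2-fold for 43 genes, BLA intervals for 27, and Psmg4 in BLA has the only interval plotted that leaves out 0.

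Whether the training difference itself differed between the regions was tested with a region by training term over all 16 libraries. limma called 0 of 44 members and 0 of 15191 genes (0%), and 1 member, Psmg4, had an unadjusted p under 0.05, against 3.96% of all genes. Its term was -1.85 (SE 0.87, adjusted p = 0.9995). Psmb5, lower after CTA in BLA and higher in GC by means, had a term of -0.48 (SE 0.23, adjusted p = 0.9995). The 95% interval of the term was within 2-fold for 20 of 44 members.

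The regions were compared over both trainings, with all 16 libraries in the fit. On TPM as deposited, 1 of 44 members was called, Psmb5, which was lower in BLA. Over all 15191 genes tested limma called 2933 (19.3%), of which 2307 (15.2% of those tested) were lower in BLA, so fewer members were called than the share over all genes. Psmb5 averaged 264 ± 46.5 TPM in BLA and 345 ± 51.4 TPM in GC (SD, n = 8), a log2 difference of -0.39 (SE 0.11, adjusted p = 0.0213). A two-sided exact permutation test of its mean TPM within training gave p = 0.00612. In 7 members the unadjusted p was under 0.05 (31.2% of all genes), with Psmb5, Psmd7 and Psmf1 lower and Psmd5, Psme2, Psme1 and Psmc4 higher in BLA. No member was free of overlap between the 8 BLA and 8 GC libraries, against 5.91% of all genes.

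The call of Psmb5 turned on the scale and on single libraries. Most genes were lower in BLA on TPM as deposited (median log2 difference of all genes -0.23), and 34 of the 44 members lay above that median, with a median of -0.02 (18 higher, 26 lower). When the libraries were rescaled by the median ratio of genes, the median of all genes moved to -0.03, that of the members to 0.20 (34 higher, 10 lower), and the share of region calls higher in BLA rose from 21.3% to 44.6% (43.3% with quantile normalization). On that scale Psmb5 was at -0.17 (adjusted p = 0.468) and 5 other members were called, all higher in BLA: Psme2 at 0.81, Psmd5 at 0.75, Psmc4 at 0.73, Psme1 at 0.69 and Psma5 at 0.41, where 16.8% of 15165 genes were called. Without GC CTA 4, which had the highest Psmb5 value, the adjusted p on TPM as deposited was 0.0519 and no member was called. It was 0.0579 without Thy1 in the total and 0.0805 without the variance trend, again with no member called. Leaving out BLA CTA 2, BLA CTA 4, BLA taste control 2, BLA taste control 3, GC CTA 3 or GC taste control 4 gave 2 calls, Psmb5 and 1 of Psmd5, Psme1 and Psme2. Across the deposited TPM, both rescalings and TPM without Thy1, 18 members were higher in BLA each time, 10 were lower each time (Psmb5, Psmc2, Psmc6, Psmd12, Psmd3, Psmd7, Psme3, Psmf1, Psmg2 and Psmg4), and 16 changed sign. Without Thy1 in the total, the median of the members was 0.04 (25 higher, 19 lower) and that of all genes -0.18. Glial transcripts also differed between the regions, and their part in these differences was not tested. A lower share of cells with a transcript and less of it per cell cannot be told apart in sorted pools.

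**Figure D5:**
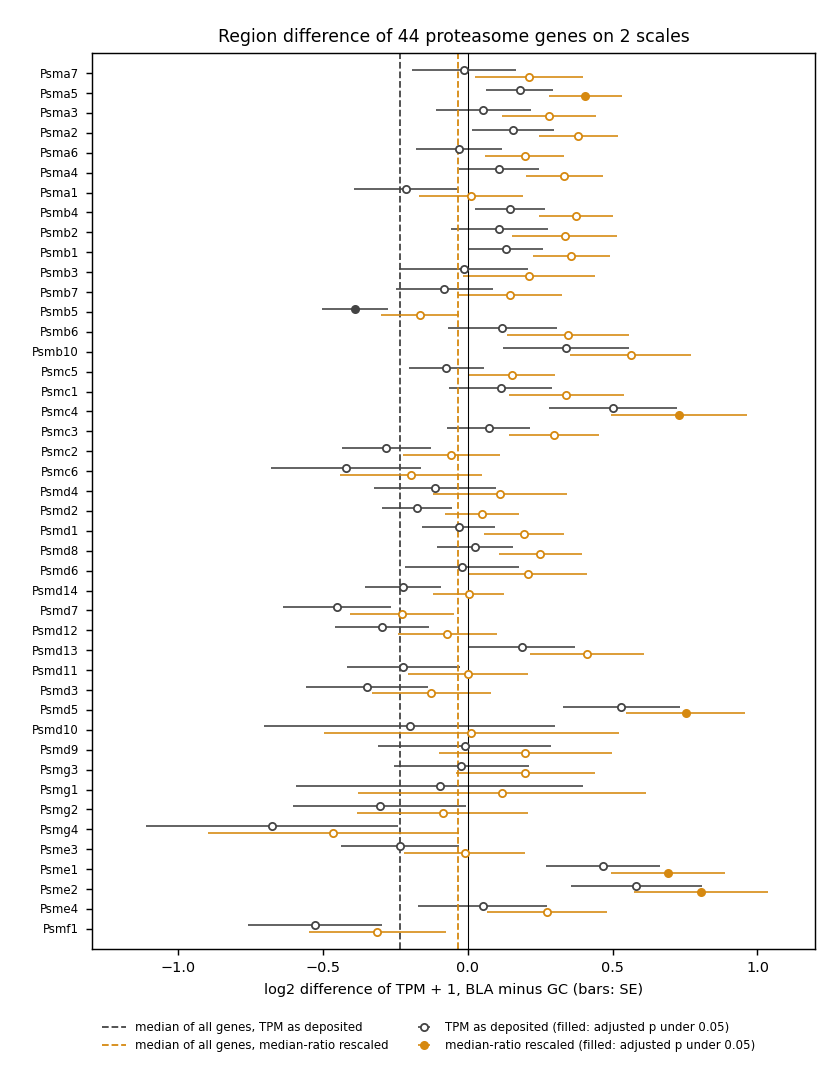
Difference of each of 44 proteasome genes between BLA and GC on the log2(TPM + 1) scale, with its SE, over 16 libraries, for TPM as deposited (grey) and after median-ratio rescaling (orange). Filled points have an adjusted p under 0.05, and dashed lines mark the median of all genes at -0.23 and -0.03. Psmb5 is the only filled grey point, and Psma5, Psmc4, Psmd5, Psme1 and Psme2 are the filled orange points.

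By role, the differences on TPM as deposited were small for the 20S core other than Psmb5, from -0.21 (Psma1) to 0.18 (Psma5) among alpha and from -0.02 (Psmb3) to 0.15 (Psmb4) among non-catalytic beta subunits. The ATPases ran from -0.42 (Psmc6) to 0.50 (Psmc4) and the lid from -0.45 (Psmd7) to 0.19 (Psmd13). Psme1 averaged 96.7 ± 40.4 TPM in BLA and 65.8 ± 11.3 TPM in GC, and Psme2 87.1 ± 44.5 TPM and 55.97 ± 19.1 TPM (SD, n = 8). The highest value of each was in a BLA library, BLA CTA 2 for Psme1 (179.7 TPM) and BLA taste control 1 for Psme2 (192 TPM). All 31 standard 20S and 19S genes had a 95% interval within 2-fold, as had 8 of the 13 other members. The 5 beyond it were Psmd10, Psme2, Psmf1, Psmg1 and Psmg4.

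Within each training the regions were compared again, on 4 against 4 libraries that share none with the other training. After taste control limma called 0 of 44 members and 1203 of 15085 genes (7.97%). In 3 members the unadjusted p was under 0.05 (22.3% of all genes), and 1, Psmf1, was free of overlap (16.1% of all genes were), at a log2 difference of -0.73 (SE 0.32, adjusted p = 0.208). After median-ratio rescaling Psmf1 was at -0.50 (adjusted p = 0.416), with overlap. After CTA limma called 0 of 44 members and 994 of 15077 genes (6.59%). In 3 members the unadjusted p was under 0.05 (21% of all genes), and none was free of overlap (14.6%). Psmb5 was at -0.63 (adjusted p = 0.0685) after CTA and at -0.15 after taste control, where median-ratio rescaling turned it to 0.093. Without BLA CTA 2 Psmb5 was called after CTA, at -0.78 (adjusted p = 0.0182). The difference had the same sign after both trainings in 26 of 44 members (59.1%), against 71.7% of 14300 genes tested in both. Of these 14300 genes, 7403 were lower in BLA both times and 2852 higher, against 14 and 12 of the members. Since most genes were lower in BLA on this scale, the shares do not compare how well members and other genes repeat. Above the median of all genes both times lay 25 of the 44 members and 4899 of the 14300 genes. Psmf1 was lower in BLA both times and Psme2, at 1.04 after taste control, was at 0.13 after CTA.

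Other genes of the pathway, 30 tested of 32 listed, gave 0 calls for training in either region. Between the regions 6 were called, 2 higher and 4 lower in BLA, a share near the 19.3% of all genes. Nfe2l1, the transcription factor that raises proteasome genes when proteolysis falls short, averaged 130.1 ± 18.6 TPM in BLA and 207 ± 17.2 TPM in GC (SD, n = 8), a log2 difference of -0.67 (SE 0.11, adjusted p = 0.000312). Nfe2l1 stood at 116, 145, 98.9 and 142 TPM in the BLA CTA libraries and at 136, 146, 146 and 112 TPM in the BLA taste controls. GC levels of Nfe2l1 were 203, 188, 213 and 211 TPM after CTA and 189, 191, 225 and 234 TPM in the taste controls. Every BLA value of Nfe2l1 was below every GC value, where 5.91% of all genes were free of overlap in either direction. Ddi2, the protease that activates Nfe2l1, was at -1.34 (SE 0.33, adjusted p = 0.00785), and the main ubiquitin-activating enzyme Uba1 at -0.61 (SE 0.11, adjusted p = 0.000452).

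Uba1 stood at 121, 124, 147 and 163 TPM in the BLA CTA libraries and at 145, 119.5, 133 and 122 TPM in the BLA taste controls. GC levels of Uba1 were 198, 190.2, 228 and 215 TPM after CTA and 177, 196, 234 and 206 TPM in the taste controls. The regions did not overlap for Uba1 either. The shuttle factor Rad23b was at -0.62 (adjusted p = 0.00745). Rps27a, which encodes ubiquitin fused to a ribosomal protein, was higher in BLA, at 0.47 (adjusted p = 0.0129). Nfe2l1, Ddi2, Uba1 and Rps27a were also called in the same direction after median-ratio rescaling and quantile normalization. Within single trainings limma called Nfe2l1 both times, Uba1 only after taste control, Rps27a only after CTA, and Ddi2 and Rad23b in neither. The 20S maturation factor Pomp was at 0.10 (SE 0.14), the ubiquitin receptor Adrm1 at -0.23 (SE 0.17) and the proteasome-bound deubiquitinase Usp14 at 0.31 (SE 0.23), none of them called.

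Members varied more between BLA than between GC libraries. The SD of log2(TPM + 1) within a training group, pooled over both trainings, was larger in BLA for 40 of 44 members, as it was for 81.0% of 15191 genes. Its median over the members was 0.46 in BLA and 0.28 in GC, beside 0.69 and 0.43 over all genes tested. Where the mean level reached 30 TPM the members' medians were 0.43 and 0.28, next to 0.44 and 0.28 over all such genes. Within the family the 31 standard 20S and 19S genes had medians of 0.40 in BLA and 0.24 in GC, and the 13 other members 0.57 and 0.36. The widest SD in BLA was 1.62 for the chaperone Psmd10 against 0.71 for the widest of the standard subunits.

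The amplification used does not mark the strand of a transcript, so reads from bases shared by genes on opposite strands cannot be told apart. Reads from bases shared on the same strand could not be told apart in any case. By the GRCm38 annotation 13 of the 48 members share exonic bases with another gene. The widest overlaps were Psmd9 with Gm26745 (25.5% of its exonic bases), Psmb8 with Gm20496 (14.7%), Psmb5 with Mir686 (12.1%), Psmb7 with Nek6 (11.8%) and Psmd13 with Sirt3 (10.1%). Of the members called on either scale or free of overlap between regions, Psmb5 shares 109 bases with Mir686, on the same strand. Psme1 shares 14 bases with Emc9, Psma5 shares 60 with 1700010K24Rik, and Psmd5, Psme2, Psmc4 and Psmf1 share none. Reads that also match processed copies of these genes elsewhere would have been dropped with other reads that were not unique, and the effect on levels was not tested.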

How the data were processed

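YFP+ neurons of 16 libraries (4 per region and training) were profiled from Pico-pure RNA amplified with a kit that keeps no strand. The authors used TopHat (version not given in the sources used here) for alignment to mm10 and made TPM from unique reads with their own scripts. The 2 deposited tables hold the TPM of each library. They also hold the authors' group means, fold-change and p-value columns, which were not used. Each library sums to 1000000 TPM, no counts were kept, and the depth per library is unknown.

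For each comparison, genes averaging 1 TPM or more in its libraries entered limma 3.58.1 (R 4.3.3) on the log2(TPM + 1) scale, with a variance trend. The fit was checked on simulated data. p-values were adjusted over all genes by the Benjamini-Hochberg method and called under 0.05. Differences on this scale understate the change of low genes. Single members were also tested by two-sided exact permutation of libraries. Nothing in the labels says that replicates are separate animals, so p-values measure the spread between these libraries.

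Values in every library are given for members called or free of overlap, for the catalytic subunits with their immunoproteasome counterparts, and for the highest and lowest member of each role. Psma5, Psmc4, Psmd10, Psme1, Psme2 and Psmg1 were named after their values were seen. The members, gene lists and tests were chosen with earlier results of these data known. Positions are from GENCODE on GRCm38, the build that mm10 names. Alternatives changed the pseudocount (0.1, 5), the filter (none, 5, 30 TPM), the scaling, the trend, library weights, repeated names and each library in turn. A replicate block and the study's stated criteria (a ratio of at least 2 or at most 0.5, p under 0.01 and 30 TPM) were also run. The p-value under these criteria was that of limma, where the study used an unpaired t-test. Listed genes with no entry under the names searched included Paaf1 and H2-D1, and single values of some listed genes are not reported here. Pvalb+ neurons were not analysed here.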

Additional observations from a re-analysis of the deposited data

Results flagged for a closer look

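Among 100 sets of 4 libraries (28 members in 4 groups, leaving out sets in which no library reached 1 TPM), 5 held a library whose gap to the nearest other library passed Dixon's 95% critical value, where chance gives about 1 in 20. That rate does not apply to members picked for their spread: Psmd10 and Psmg1 were among those added after their values were seen. Psmd10 stood at 103 TPM in BLA taste control 3, where the rest of its group ran from 21.5 to 30.3 TPM. Psmg1 stood at 56.7 TPM in GC taste control 3, against 16.3 to 22.4 TPM. Psmb9 stood at 5.33 TPM in the same library, against 0 to 0.12 TPM. Psmb8 stood at 1 TPM in GC taste control 1, against 0 to 0.07 TPM, and Psmd5 was low there at 30.6 TPM, against 40.4 to 41.0 TPM. Psmb8 and Psmb9 were below the level required for testing. The other 3 were not called in the 6 comparisons on TPM as deposited with all libraries, and Psmd5 was called between the regions without BLA CTA 2 or GC CTA 3.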

How the results depend on the processing

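For CTA against taste control in BLA and in GC, for the region by training term and for BLA against GC after taste control, the count of members called stayed at 0 under each alternative run. The study's criteria were applied to the limma p in place of the study's t-test, and they have no form for the region by training term. They called 0 members in the other 5 comparisons, and 366 genes in place of 2933 between the regions. For CTA against taste control they called 19 of 14611 genes in BLA and 3 of 15278 in GC. The adjusted p called no gene in either of these comparisons. The absence of training calls over all genes therefore holds for the adjusted test on 4 against 4 libraries.

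Between the regions over both trainings the count of 1 became 5 with median-ratio rescaling, 2 with quantile normalization (Psmb5 and Psmd5) and with library weights (Psmb5 and Psme1), and 0 without Thy1, without the variance trend and by the study's criteria. Leaving out single libraries gave 0 to 2, and for the regions after CTA 0 to 1, with Psmb5 called without BLA CTA 2 (adjusted p = 0.0182). The adjusted p of Psmb5 over both trainings ran from 0.00309 to 0.468, with 0.0579 without Thy1 and 0.0805 without the trend, and its difference stayed negative. After taste control, median-ratio rescaling turned it to 0.093. The cause was not tested.

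The labels do not say that replicate numbers pair the libraries, and the main fits did not pair them. Correlations of same-numbered deviations ran from -0.06 to 0.01 in BLA and from 0.04 to 0.13 in GC, where 6 of 8 libraries were best with their own number. Between the regions they ran from -0.09 to 0.01 after taste control and from -0.10 to 0.09 after CTA. Whether same-numbered libraries share an animal or a batch was not tested. With the replicate block, 0 members were called between the regions (Psmb5 adjusted p = 0.0581) and 2458 genes in place of 2933, and the block changed no other count of members. TPM keep no depth, so counting error cannot be separated from spread.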
